A study of Mus musculus with 2 samples.

Results

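Mitotic mast cells were the tenth of the *Cpa3*-high cells with the highest summed level of 6 genes of cell division. Cells were kept with 1000 to 5000 detected genes, at most 5% mitochondrial UMIs, at least 40 UMIs of *Cpa3* and under 20 UMIs of *Mcpt1* per 10000 UMIs. A UMI is a molecular tag that marks 1 captured transcript. They were ranked, both libraries together, by the summed UMIs per 10000 of *Aspm*, *Hmmr*, *Cenpf*, *Mki67*, *Prc1* and *Plk1*. The top 10% of 3992 such cells gave 399 mitotic cells, 214 in Em-Ex and 185 in YS-Ex, out of 5158 cells that passed the limits on genes and mitochondrial UMIs. The remaining 3593 *Cpa3*-high cells are called other cells below.

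Em-Ex cells came from cultured explants of the embryo proper and YS-Ex cells from cultured explants of the yolk sac, both of C57/BL6 conceptuses at E8.5 with 5 to 7 somite pairs. Both kinds of explant grew for 10 days with SCF, IL-3 and FLT3 ligand, each at 100 ng/ml, and SCF and IL-3 are also growth factors of cultured mast cells. Cells were then sorted as CD31+CD45+c-Kit+CD41- from pooled tissue, and each condition gave 1 droplet library. With 1 library per condition no test was possible, and tissue of origin and library cannot be told apart. The 95% intervals in parentheses (exact Poisson for levels, exact conditional binomial for ratios, Clopper-Pearson for shares of cells) cover counting error only, not the spread between cultures or between cells.

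Mast cells store proteases, histamine and heparin in granules and, unlike most granulocytes, can still divide once their granules have formed. In a dividing cell the genes of DNA replication are expressed first, toward S phase, and the genes of the spindle, the kinetochore and the anaphase-promoting complex follow in G2 and mitosis. Many of these late genes carry CCAAT boxes, bound by NF-Y, and a cell cycle genes homology region (CHR), bound by the MuvB complex with B-MYB or FOXM1.

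The levels of the 6 rule genes are a description, since they chose the cells. Here and below, a pair of values gives the level in mitotic against other cells, in CPM, the UMIs of a gene per 1000000 UMIs of the pooled cells. *Mki67*, which encodes the proliferation antigen Ki-67, was at 213 against 16.8 CPM in Em-Ex and 532 against 14.6 CPM in YS-Ex. *Plk1*, a kinase of mitotic entry and exit, was at 151 against 4.68 CPM in Em-Ex and 82.1 against 0.794 CPM in YS-Ex. *Aspm*, a spindle pole protein, was at 37.2 against 1.56 CPM in Em-Ex and 87.2 against 1.07 CPM in YS-Ex. *Cenpf*, a kinetochore protein, was at 189 against 4.82 CPM in Em-Ex and 275 against 4.11 CPM in YS-Ex. All 4 of these genes marked the mitotic cells of both libraries, *Plk1* at a higher level in Em-Ex and the other 3 in YS-Ex. The longest transcript of *Plk1* has 2199 bases and those of *Aspm*, *Cenpf* and *Mki67* have 9867, 11130 and 10061. Levels between the libraries moved with transcript length, as given below. The part of length in these levels, and so in the score and the shares of each library, was not tested. UMIs of *Mki67* were found in 91.6% of the mitotic and 11.8% of the other cells of Em-Ex and in 96.8% and 10.5% of those of YS-Ex. With cells ranked by *Hmmr*, *Mki67* and *Prc1* alone, the genes not used in that ranking had log2 ratios of mitotic to other cells of 4.23 in Em-Ex and 6.24 in YS-Ex for *Aspm*, 4.48 and 5.80 for *Cenpf*, and 4.29 and 6.26 for *Plk1*. All 3 were thus higher in cells that had been chosen without them. They are rule genes themselves, so this describes the rule and is no separate check of it. By the full score they were at most at 4.82 CPM in the other cells of Em-Ex and 4.11 CPM in those of YS-Ex. Their ratios therefore rest on low levels in the other cells.

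The score was a range and not a cell type. Its median was 7.29 UMIs per 10000 in the mitotic cells of Em-Ex (range 3.94 to 23.6) and 12.7 in those of YS-Ex (range 3.95 to 49.0). A score of 0 was found in 72.8% (70.8–74.7) of the *Cpa3*-high cells of Em-Ex and 74.3% (72.3–76.3) of those of YS-Ex. The lowest members scored 3.94 and 3.95 and the highest cells outside scored 3.92 and 3.91. Within 20% of the lowest member lay 26 Em-Ex and 17 YS-Ex cells above it and 33 and 16 cells below it. Mitotic cells made up 10.3% (9.03–11.7) of the *Cpa3*-high cells of Em-Ex and 9.66% (8.37–11.1) of those of YS-Ex, shares whose counting intervals overlapped. The order depended on the share of the ranking taken, with Em-Ex and YS-Ex at 3.66% and 6.48% for the top 5% and 21.1% and 18.8% for the top 20%. Scores as high were not particular to *Cpa3*-high cells: among cells with *Cpa3* under the limit, 24.8% (21.96–27.8) in Em-Ex and 29.1% (21.7–37.3) in YS-Ex reached that of the lowest member.

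Mitotic cells held more transcripts than the other cells. The median was 18201.5 UMIs and 3695 genes in the mitotic cells of Em-Ex against 11040 UMIs and 2501 genes in the others, a ratio of 1.65 for UMIs. In YS-Ex the medians were 19970 UMIs and 3994 genes against 11420 UMIs and 2728.5 genes, a ratio of 1.75. The ranges overlapped, from 4573 to 34016 UMIs over the mitotic cells of Em-Ex and from 4108 to 33983 over those of YS-Ex. With each cell thinned to 3000 UMIs, the median was 1246 against 1118 genes in Em-Ex and 1272 against 1164 in YS-Ex. Mitochondrial UMIs, which rise in damaged cells, had a median of 2.73% against 3.20% in Em-Ex and 3.18% against 3.65% in YS-Ex.

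**Figure D1:**
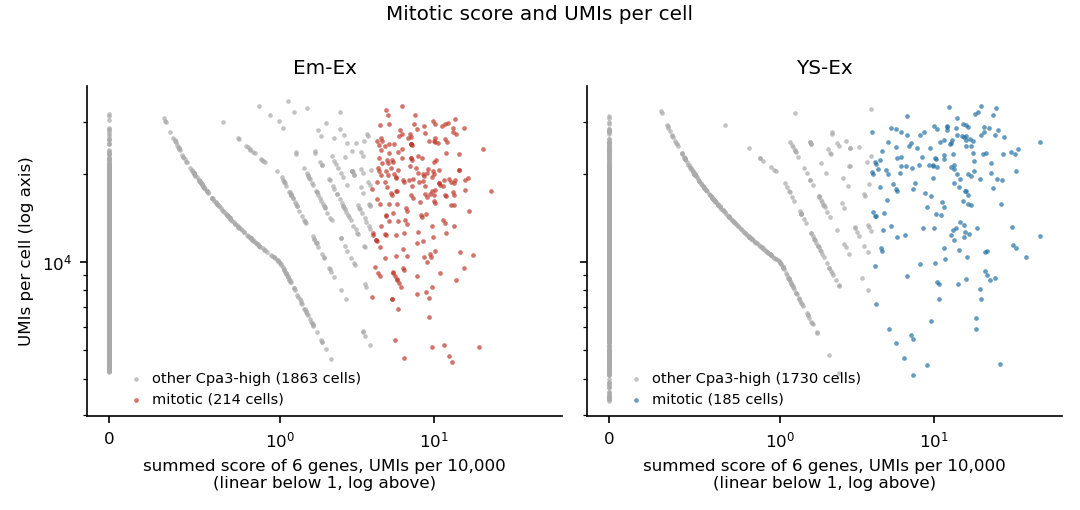
Each point is 1 *Cpa3*-high cell, with the summed score of the 6 rule genes (UMIs per 10000) on the x axis and its UMIs on the y axis, in Em-Ex and in YS-Ex, and the 214 and 185 mitotic cells are coloured. The coloured cells lie mostly in the upper part of the UMI range, with medians of 18201.5 and 19970 UMIs, and most grey cells sit at a score of 0.

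Droplets that caught 2 cells also hold more UMIs, and no doublet caller was run. The limit of 5000 genes took out 10 *Cpa3*-high barcodes of Em-Ex and 23 of YS-Ex, of which 5 and 17 scored at or over the lowest member. Cells with UMIs both of *Xist* and of a Y-linked gene, among cells with UMIs of either, were 10 of 202 mitotic cells of Em-Ex, 4.95% (2.40–8.92), against 4.02% (3.15–5.05) of the other cells. In YS-Ex they were 10 of 175, 5.71% (2.77–10.3), against 4.19% (3.25–5.29). At 3000 UMIs per cell they were 1 of 167 mitotic and 16 of 1473 other cells in Em-Ex and 0 of 128 and 12 of 1274 in YS-Ex. Barcodes present in both libraries were carried by 5 of 214 mitotic cells of Em-Ex and 5 of 185 of YS-Ex, against 9 of 1863 and 13 of 1730 other cells, and 6 mitotic cells had a barcode that was mitotic in both libraries. The part of doublets in the results was not tested. Without the shared barcodes, 400 genes were at least 2-fold higher in mitotic cells of Em-Ex and 568 in those of YS-Ex, against 397 and 576 with them.

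The 15 genes with the highest ratio of mitotic to other cells, by the smaller of both libraries' ratios and outside the rule, were, in order, *Ube2c*, *Aurka*, *Nusap1*, *Prr11*, *Cenpe*, *Sapcd2*, *Kif4*, *Mxd3*, *Sgol2a*, *Kif11*, *Cdc20*, *Ckap2l*, *Ccnb1*, *Ccnf* and *Kifc1*. *Cenpe*, *Kif4*, *Kif11* and *Kifc1* are kinesins, *Ube2c* and *Cdc20* act with the anaphase-promoting complex, *Aurka* is a centrosomal kinase, *Ccnb1* and *Ccnf* are cyclins, *Sgol2a* protects centromeric cohesin, and *Mxd3* is a transcription factor that pairs with MAX. Of the 15, 7 had 100 UMIs in the other cells of Em-Ex and 2, *Ube2c* and *Cenpe*, in those of YS-Ex. In each library the rest reached the limit on UMIs through the mitotic cells, so their rank rests on few UMIs in the other cells. Over the 7874 genes with 100 UMIs in the other cells of both libraries, the 15 highest were, in order, *Ube2c*, *Cenpe*, *Tpx2*, *Kif22*, *Birc5*, *Top2a*, *Incenp*, *Cdca8*, *H2afx*, *Kpna2*, *Kif20b*, *Cdk1*, *Cdkn3*, *Tacc3* and *Cenpa*. The promoters of the first 15 were looked up. RefSeq windows (GRCm38.p6) of 250 bases before and 50 bases after the gene start were found for 14 of the 15 genes, all but *Sgol2a*. A CHR (TTTGAA or TTCGAA on either strand, so also TTCAAA) lay in 9 of the 14 windows, 64.3%, against 16.3% of the 8859 genes of the table with a window and 19.2% of all 32851 windows. A CCAAT box (CCAAT on either strand, so also ATTGG) lay in 11 of the 14, 78.6%, against 43.4% and 37.4%. Both lay in 9 of the 14, 64.3%, against 6.95% and 7.52%. Of the 15 highest genes with 100 UMIs in the other cells, 12 had a window, of which 9 held a CHR, 9 a CCAAT box and 8 both. Of the 15 genes with the lowest ratio, 11 had a window, of which 2 held a CHR, 3 a CCAAT box and 0 both. A match describes letters and is no evidence of a bound site. The 5 genes of the first group whose CHR lay before the gene start are printed, because the spacing of the CHR and the CCAAT boxes can be read from them. Each line gives the 250 bases before the gene start, 5′ to 3′ on the strand of the gene, with every CHR and CCAAT match in capitals, and CCAATTGG in *Ube2c* is a CCAAT and an ATTGG that share letters.
Ube2c (chr2:164769679-164769928, plus strand): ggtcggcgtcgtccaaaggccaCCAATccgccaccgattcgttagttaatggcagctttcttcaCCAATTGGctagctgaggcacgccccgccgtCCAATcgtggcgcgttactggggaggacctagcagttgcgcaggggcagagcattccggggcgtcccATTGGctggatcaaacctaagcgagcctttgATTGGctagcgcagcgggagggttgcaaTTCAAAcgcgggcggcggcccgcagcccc
Kif11 (chr19:37376132-37376381, plus strand): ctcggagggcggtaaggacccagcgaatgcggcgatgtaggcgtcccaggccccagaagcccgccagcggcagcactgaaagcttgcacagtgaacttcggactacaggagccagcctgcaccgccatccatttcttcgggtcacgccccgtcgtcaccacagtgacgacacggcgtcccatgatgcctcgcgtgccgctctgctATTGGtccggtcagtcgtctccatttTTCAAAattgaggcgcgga
Cdc20 (chr4:118437344-118437593, minus strand): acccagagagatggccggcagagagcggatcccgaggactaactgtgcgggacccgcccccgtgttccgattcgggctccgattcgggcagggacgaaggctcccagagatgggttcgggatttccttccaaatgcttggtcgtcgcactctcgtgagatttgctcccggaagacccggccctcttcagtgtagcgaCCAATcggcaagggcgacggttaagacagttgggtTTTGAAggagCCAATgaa
Ckap2l (chr2:129297213-129297462, minus strand): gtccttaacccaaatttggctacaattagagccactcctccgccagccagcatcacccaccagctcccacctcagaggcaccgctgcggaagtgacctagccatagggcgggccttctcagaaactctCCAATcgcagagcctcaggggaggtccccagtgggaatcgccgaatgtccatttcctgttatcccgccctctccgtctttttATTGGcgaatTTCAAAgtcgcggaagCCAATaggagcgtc
Ccnf (chr17:24251410-24251659, minus strand): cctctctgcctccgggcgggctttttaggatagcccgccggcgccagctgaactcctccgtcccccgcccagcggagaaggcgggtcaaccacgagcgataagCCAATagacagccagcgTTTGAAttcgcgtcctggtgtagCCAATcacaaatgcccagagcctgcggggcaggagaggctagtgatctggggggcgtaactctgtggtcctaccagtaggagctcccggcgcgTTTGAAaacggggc

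The CHR began 29 bases before the gene start in *Ube2c*, 19 in *Kif11*, 18 in *Cdc20*, 30 in *Ckap2l*, and 130 and 14 in *Ccnf*, which held 2 there. The window of *Ckap2l* also held 2, the second after the gene start and so outside the printed bases. *Ube2c*, the ubiquitin-conjugating enzyme of the anaphase-promoting complex, was at 904 against 43.8 CPM in Em-Ex (20.6-fold, 19.2–22.2) and 455 against 14.7 CPM in YS-Ex (30.9-fold, 27.4–35.0). Its UMIs were found in 96.3% of the mitotic and 26.4% of the other cells of Em-Ex and in 88.1% and 13.4% of those of YS-Ex, and at 3000 UMIs per cell in 76.2% and 8.86% in Em-Ex and 54.6% and 4.45% in YS-Ex. *Cdc20*, which activates that complex at anaphase, was at 257 against 17.9 CPM in Em-Ex (14.4-fold, 12.8–16.2) and 116 against 3.41 CPM in YS-Ex (34.0-fold, 26.4–44.2). For both genes the mitotic cells of Em-Ex held the higher level and the other cells of YS-Ex the lower one. *Ccnf*, cyclin F, was at 52.3 against 3.70 CPM in Em-Ex (14.1-fold, 10.9–18.5) and 35.1 against 1.12 CPM in YS-Ex (31.3-fold, 20.1–50.7). *Ckap2l*, a spindle protein, was at 66.6 against 4.64 CPM in Em-Ex (14.4-fold, 11.4–18.2) and 88.9 against 2.38 CPM in YS-Ex (37.3-fold, 27.7–51.3). *Kif11*, the motor that pushes spindle poles apart, was at 61.9 against 4.28 CPM in Em-Ex (14.5-fold, 11.4–18.5) and 143 against 2.10 CPM in YS-Ex (68.1-fold, 50.1–94.6). In contrast to the first 3 genes, *Ckap2l* and *Kif11* had the higher mitotic level in YS-Ex.

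Over all genes, 397 of 8532 were at least 2-fold higher in the mitotic cells of Em-Ex (4.65%) and 181 at least 2-fold lower (2.12%). These are genes with at least 100 UMIs in the *Cpa3*-high cells of the library and a counting interval off 1, with the rule genes left out. In YS-Ex 576 of 8831 genes were higher (6.52%) and 326 lower (3.69%). The median log2 ratio over genes was 0.18 in Em-Ex and 0.09 in YS-Ex, and relative to it, in place of total UMIs, 290 genes were higher and 284 lower in Em-Ex and 507 and 391 in YS-Ex. The counts also moved by over 1.5 times without the limit of 100 UMIs, to 625 higher genes in Em-Ex, and with the top 20% of cells taken, to 117 lower genes in YS-Ex. Of 8316 genes with enough UMIs in both libraries, 305 were higher in both, 82.9% of the 368 of Em-Ex and 56.7% of the 538 of YS-Ex. Genes lower in both numbered 94, which was 57.7% of 163 and 35.3% of 266. The cells were chosen on this contrast, so nothing is read from these counts but the make-up of the chosen cells. A low gene can also reach 100 UMIs because mitotic cells carry it, so each list of cell division genes below is given a stricter count as well, over the members with 100 UMIs in the other cells alone. By that count 3.84% of all genes were higher in Em-Ex and 5.06% in YS-Ex. Each count of higher members below stands against these shares and the 4.65% and 6.52% above, and each count of lower members against 2.12% and 3.69% (2.17% and 3.78% by the stricter count).

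**Figure D2:**
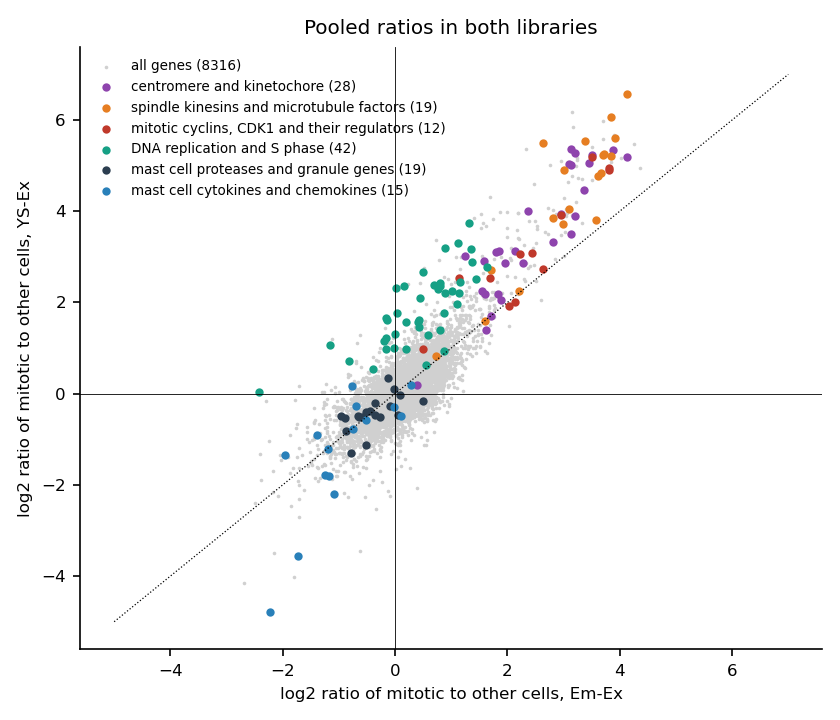
Each point is 1 of 8316 genes, with the log2 ratio of mitotic to other cells in Em-Ex on the x axis and in YS-Ex on the y axis. Coloured genes of cell division sit at the upper right and mostly above the line of equal ratios, replication genes are mostly above 0 in YS-Ex (median 1.77) and nearer 0 in Em-Ex (median 0.52), and cytokine genes lie mostly at the lower left.

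Cyclins and mitotic kinases were higher in the mitotic cells of both libraries. Of the 14 genes of mitotic cyclins, CDK1 and their regulators, 13 of 14 in Em-Ex and, in YS-Ex, 11 of 12 of those with enough UMIs were at least 2-fold higher (against 4.65% and 6.52% of all genes, 7 of 8 and 5 of 6 by the stricter count, with medians of 2.33 and 2.54), with median log2 ratios of 2.54 in Em-Ex and 2.90 in YS-Ex. *Ccnb1*, cyclin B1, was at 243 against 17.3 CPM in Em-Ex (14.1-fold, 12.5–15.9) and 137 against 4.53 CPM in YS-Ex (30.2-fold, 24.2–38.0). *Ccna2*, cyclin A2, was at 249 against 21.8 CPM in Em-Ex and 163 against 4.43 CPM in YS-Ex. *Cdk1*, the kinase these cyclins switch on, was at 222 against 28.5 CPM in Em-Ex and 136 against 9.06 CPM in YS-Ex. *Cks2*, a small CDK-binding protein, was the most abundant of them, at 883 against 202 CPM in Em-Ex and 669 against 166 CPM in YS-Ex. *Wee1*, which inhibits CDK1, was the member not past 2-fold in either library, at 19.0 against 13.6 CPM in Em-Ex and 69.0 against 35.2 CPM in YS-Ex, and is named after its values were seen. Of the mitotic kinases, 10 of 10 in Em-Ex and, in YS-Ex, 9 of 9 were higher (6 of 6 and 2 of 2 by the stricter count, with medians of 3.10 and 2.51), with medians of 3.08 in Em-Ex and 5.11 in YS-Ex. *Aurka*, the Aurora kinase of the spindle poles, was at 105 against 5.49 CPM in Em-Ex (19.2-fold, 15.7–23.7) and 52.7 against 1.17 CPM in YS-Ex (45.2-fold, 29.7–71.6). *Aurkb*, the Aurora kinase of the centromere, was at 105 against 11.1 CPM in Em-Ex and 93.2 against 3.50 CPM in YS-Ex. *Bub1*, a kinase of the spindle checkpoint, was lower in the mitotic cells of Em-Ex than of YS-Ex, at 27.3 against 3.12 CPM in Em-Ex and 62.4 against 1.54 CPM in YS-Ex.

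Kinetochore genes, whose products tie chromosomes to the spindle, were higher almost throughout. Of 35 of them outside the rule, 32 of 33 in Em-Ex and, in YS-Ex, 27 of 28 were higher (21 of 22 and 12 of 13 by the stricter count, with medians of 1.91 and 2.87), with medians of 2.27 in Em-Ex and 3.23 in YS-Ex. *Cenpa*, the centromeric histone, was at 546 against 77.9 CPM in Em-Ex (7.01-fold, 6.58–7.48) and 329 against 32.6 CPM in YS-Ex (10.1-fold, 9.17–11.1). *Cenpe*, a kinetochore motor, was at 124 against 7.09 CPM in Em-Ex and 217 against 5.93 CPM in YS-Ex. *Zwint*, a kinetochore scaffold, was the exception in both libraries, at 184 against 141 CPM in Em-Ex and 111 against 96.4 CPM in YS-Ex. All 4 genes of the chromosomal passenger complex, which corrects faulty attachments, were higher in both (4 of 4 and 3 of 3 by the stricter count). *Birc5*, which encodes survivin, was at 535 against 57.2 CPM in Em-Ex (9.35-fold, 8.71–10.0) and 421 against 13.3 CPM in YS-Ex (31.7-fold, 27.9–36.2). *Cdca8*, borealin, was at 329 against 40.01 CPM in Em-Ex and 279 against 16.9 CPM in YS-Ex. *Incenp*, the scaffold of the complex, was at 93.6 against 10.6 CPM in Em-Ex and 126 against 8.31 CPM in YS-Ex.

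Members of the spindle checkpoint and the anaphase-promoting complex differed in size of change. Of 17 genes, 10 of 16 in Em-Ex and, in YS-Ex, 13 of 16 were higher (8 of 14 and 9 of 12 by the stricter count, with medians of 1.65 and 1.28), with medians of 1.95 in Em-Ex and 1.84 in YS-Ex. *Ube2c* and *Cdc20* were among them. *Pttg1*, securin, which the complex destroys at anaphase, was not past 2-fold in either library, at 41.1 against 38.8 CPM in Em-Ex and 39.9 against 39.7 CPM in YS-Ex, and is named after its values were seen. *Anapc11*, the RING subunit of the complex, was at 204 against 153 CPM in Em-Ex and 210.0 against 127 CPM in YS-Ex, and *Cdc26*, another subunit, at 151 against 133 CPM in Em-Ex and 121 against 108 CPM in YS-Ex, both short of 2-fold in each library.

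Spindle motors were higher too, and tubulins differed by gene. Of 23 kinesins and microtubule factors outside the rule, 18 of 19 in Em-Ex and, in YS-Ex, 19 of 20 were higher (11 of 12 and 6 of 7 by the stricter count, with medians of 3.002 and 3.72), with medians of 3.38 in Em-Ex and 4.81 in YS-Ex. *Tpx2*, which nucleates spindle microtubules and holds Aurora A there, was at 137 against 11.2 CPM in Em-Ex and 219 against 7.94 CPM in YS-Ex. *Nusap1*, which bundles microtubules near chromosomes, was at 218 against 12.4 CPM in Em-Ex (17.6-fold, 15.4–20.3) and 297 against 3.13 CPM in YS-Ex (95.03-fold, 74.2–124). *Stmn1*, which destabilises microtubules, was the most abundant, at 1007 against 307 CPM in Em-Ex and 1093 against 168 CPM in YS-Ex. *Kif23*, a motor of cytokinesis, was the exception, at 68.9 against 41.5 CPM in Em-Ex and 94.6 against 53.5 CPM in YS-Ex. Of the tubulins, 5 of 10 in Em-Ex and, in YS-Ex, 5 of 9 were higher (5 of 10 and 5 of 9 by the stricter count). *Tubb5*, a major beta tubulin, was at 1538 against 479.8 CPM in Em-Ex (3.21-fold, 3.11–3.31) and 933 against 255 CPM in YS-Ex (3.66-fold, 3.50–3.82). *Tuba1b*, an alpha tubulin, was at 1408 against 352 CPM in Em-Ex and 943 against 159 CPM in YS-Ex. *Tuba1a*, its close relative, was at 252 against 164 CPM in Em-Ex and 100.0 against 85.2 CPM in YS-Ex. Tubulin genes are alike in sequence, so counting may have split or dropped reads between them, and their single values are uncertain.

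Most genes of chromosome structure and the nuclear envelope were higher as well. Of 9 genes of condensin and chromosome structure, 8 of 9 in Em-Ex and, in YS-Ex, 9 of 9 were higher (8 of 9 and 7 of 7 by the stricter count). *Top2a*, the topoisomerase that untangles sister DNA, was at 315 against 35.4 CPM in Em-Ex (8.89-fold, 8.13–9.74) and 824 against 30.0 CPM in YS-Ex (27.4-fold, 25.2–29.9). *Smc2*, a condensin subunit, was at 201 against 35.1 CPM in Em-Ex and 350.0 against 27.3 CPM in YS-Ex. Cohesin, which holds sister chromatids from S phase on, moved less, with 4 of 11 in Em-Ex and, in YS-Ex, 6 of 11 higher (4 of 11 and 4 of 9 by the stricter count). *Rad21*, its cleaved subunit, was at 119.9 against 39.9 CPM in Em-Ex and 173 against 57.7 CPM in YS-Ex, and *Esco2*, the acetyltransferase that locks it in S phase, at 31.7 against 6.33 CPM in Em-Ex (5.01-fold, 3.90–6.43) and 125 against 3.03 CPM in YS-Ex (41.1-fold, 31.6–54.2). Of the cytokinesis genes, 8 of 10 in Em-Ex and, in YS-Ex, 8 of 10 were higher (5 of 7 and 1 of 3 by the stricter count, with medians of 2.47 and 0.83), with medians of 3.11 in Em-Ex and 4.42 in YS-Ex over all members with enough UMIs. *Racgap1*, of the central spindle, was at 139 against 12.3 CPM in Em-Ex and 111 against 4.29 CPM in YS-Ex. *Rhoa*, the GTPase of the contractile ring and of much else, was at 325 against 292 CPM in Em-Ex and 269 against 248 CPM in YS-Ex. Of the nuclear envelope genes, 9 of 12 in Em-Ex and, in YS-Ex, 9 of 12 were higher (9 of 12 and 8 of 10 by the stricter count), with the lamins apart. *Lmnb1*, lamin B1, was at 178 against 43.0 CPM in Em-Ex and 176 against 22.5 CPM in YS-Ex, and *Lmna*, lamin A and C, at 231 against 222 CPM in Em-Ex and 181 against 219 CPM in YS-Ex. Of the centrosome genes, 8 of 11 in Em-Ex and, in YS-Ex, 11 of 16 were higher (6 of 9 and 8 of 13 by the stricter count), with *Plk4*, the kinase of centriole duplication, at 49.4 against 10.7 CPM in Em-Ex and 92.6 against 8.82 CPM in YS-Ex.

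Of the factors that switch on the late genes, 4 had 100 UMIs in the other cells of Em-Ex and 3 in those of YS-Ex. *Foxm1* was at 22.1 against 2.45 CPM in Em-Ex (9.01-fold, 6.35–12.9) and 28.2 against 0.467 CPM in YS-Ex (60.4-fold, 31.5–129.9). *Mybl2*, B-MYB, was at 15.1 against 9.14 CPM in Em-Ex (1.65-fold, 1.21–2.22) and 22.8 against 2.194 CPM in YS-Ex (10.4-fold, 7.16–15.2). The ratio of *Mybl2* reached 2-fold in YS-Ex and not in Em-Ex, and the difference was not tested. In the other cells *Foxm1* had 55 and 10 UMIs and *Mybl2* 205 and 47, so all but the Em-Ex ratio of *Mybl2* rest on few UMIs there. Over MuvB, B-MYB and FOXM1, 2 of 5 in Em-Ex and, in YS-Ex, 4 of 6 were higher (1 of 4 and 1 of 3 by the stricter count, with medians of 0.61 and 0.62), with medians of 0.73 in Em-Ex and 2.20 in YS-Ex over all members with enough UMIs. Of the high mobility group and linker chromatin proteins, 8 of 10 in Em-Ex and, in YS-Ex, 8 of 10 were higher (8 of 10 and 8 of 10 by the stricter count). *Hmgb2*, a DNA-bending chromatin protein, was at 2050.4 against 372 CPM in Em-Ex (5.51-fold, 5.34–5.69) and 2003 against 220.1 CPM in YS-Ex (9.10-fold, 8.77–9.44). *H2afz*, histone variant H2A.Z, was among the most abundant genes of the mitotic cells, at 3526 against 1362 CPM in Em-Ex and 3362 against 895 CPM in YS-Ex. *H2afx*, the variant marked at DNA breaks, was at 501 against 61.8 CPM in Em-Ex and 342 against 29.2 CPM in YS-Ex.

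Replication genes showed a smaller ratio in Em-Ex than in YS-Ex. At least 2-fold higher were 10 of 42 in Em-Ex and, in YS-Ex, 34 of 42 (against 4.65% and 6.52% of all genes, 9 of 41 and 30 of 38 by the stricter count, with medians of 0.49 and 1.64), with medians of 0.52 in Em-Ex and 1.77 in YS-Ex, and 2 were lower in Em-Ex and 0 in YS-Ex. The median in Em-Ex turned to −0.17 for the top 5% of cells. Summed, the list was at 2295 against 1525 CPM in Em-Ex (1.51-fold, 1.47–1.54) and 3173 against 999 CPM in YS-Ex (3.18-fold, 3.10–3.25). *Rrm2*, a ribonucleotide reductase subunit, was at 173 against 69.8 CPM in Em-Ex (2.48-fold, 2.26–2.72) and 197 against 14.8 CPM in YS-Ex (13.3-fold, 11.7–15.3). *Tyms*, thymidylate synthase, was at 169 against 76.1 CPM in Em-Ex and 192 against 35.1 CPM in YS-Ex. *Mcm3*, a subunit of the replicative helicase, was at 101 against 75.1 CPM in Em-Ex (1.34-fold, 1.20–1.498) and 149.9 against 54.6 CPM in YS-Ex (2.74-fold, 2.47–3.04). For each of these 3 genes the other cells of Em-Ex held more than those of YS-Ex. *Cdc6* and *Ung* were the members lower in Em-Ex and are named after their values were seen. *Cdc6*, which loads the helicase in G1, was at 4.42 against 10.1 CPM in Em-Ex (0.439-fold, 0.251–0.718) and 16.2 against 7.84 CPM in YS-Ex (2.07-fold, 1.51–2.81). *Ung*, uracil-DNA glycosylase, was at 4.42 against 24.4 CPM in Em-Ex (0.182-fold, 0.105–0.293) and 9.69 against 9.62 CPM in YS-Ex (1.01-fold, 0.679–1.45). *Cdc6* was also 1 of only 2 genes among all 8316 that were at least 2-fold lower in Em-Ex and higher in YS-Ex. The other was *Id3*, an inhibitor of DNA binding, at 2.08 against 4.82 CPM in Em-Ex (0.432-fold, 0.182–0.882) and 9.40 against 4.11 CPM in YS-Ex (2.29-fold, 1.49–3.45). It is named after its values were seen, and 0 genes went the opposite way. Both genes rest on few UMIs in mitotic cells, 8 in Em-Ex and 33 in YS-Ex for *Id3* and 17 and 57 for *Cdc6*. Differences between the libraries were not tested. The count of higher replication genes in Em-Ex moved with the share of cells taken, from 1 for the top 5% to 23 for the top 20%, and in YS-Ex from 25 to 36.

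Over bins of the score the replication list was highest in another bin than the cyclin list in Em-Ex and in the same bin in YS-Ex. Ties shared a rank, so the lowest bin held all cells with a score of 0, followed by the remaining cells under the top 20%, the next 10% and the mitotic cells. The replication list was at 1086, 2669.6, 2939 and 2295 CPM in these bins of Em-Ex and at 764, 1450.0, 2147 and 3173 CPM in those of YS-Ex. In Em-Ex it was highest in the bin next to the mitotic cells, and in YS-Ex in the mitotic cells. The cyclin list was at 304, 674, 1242 and 2654 CPM in Em-Ex, whereas in YS-Ex it was at 254, 412, 706 and 2030.0 CPM, highest in the mitotic cells of both.

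Clustered histone genes, whose transcripts rise in S phase and mostly lack the poly(A) tail that this kind of library captures, also differed. They were at 536 CPM at score 0 and 803 CPM in the mitotic cells of Em-Ex and at 687 and 2114 CPM in YS-Ex. At least 2-fold higher were 6 of 10 in Em-Ex and, in YS-Ex, 12 of 18 (5 of 9 and 7 of 13 by the stricter count). *Hist1h2ap* was at 198 against 35.6 CPM in Em-Ex and 379 against 15.6 CPM in YS-Ex. *Hist1h1c*, a linker histone, was at 209 against 288 CPM in Em-Ex and 187 against 261 CPM in YS-Ex, below its level in the other cells of both libraries. Histone copies are near-identical, so values of single histone genes are uncertain.

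**Figure D3:**
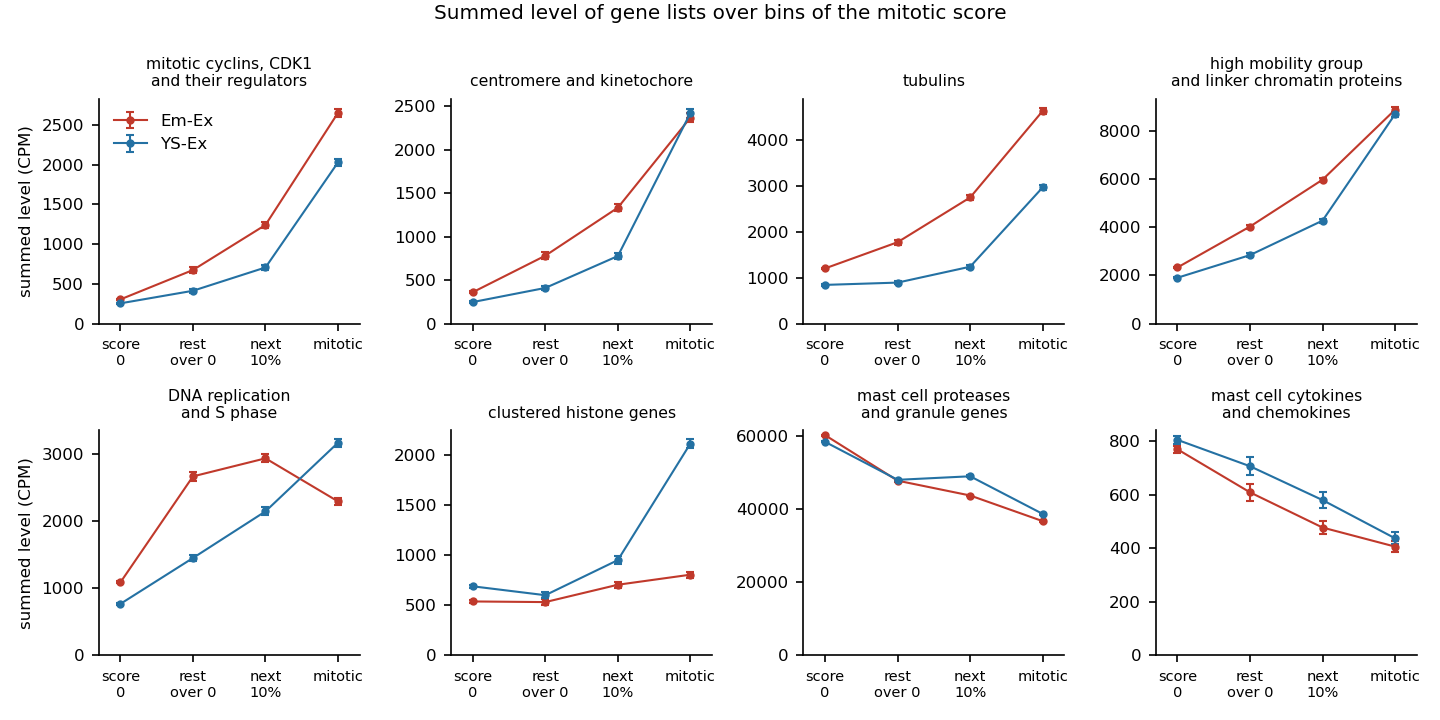
Summed level in CPM of gene lists (y axes) over bins of the mitotic score from low to high (x axes) in both libraries, with 95% Poisson intervals. The cyclin list is highest in the mitotic cells of both, while the replication list goes from 2939 to 2295 CPM in the last step of Em-Ex and from 2147 to 3173 CPM in that of YS-Ex.

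The mitotic cells varied among themselves along the same axis. Divided into 4 groups of near equal size by score within each library, *Ube2c* went from 1485 CPM in the highest to 381 CPM in the lowest group of Em-Ex and from 899 to 89.6 CPM in YS-Ex. *Ccnb1* went from 382 to 157 CPM and from 211 to 32.3 CPM. The replication list went the other way, from 1619 to 2911 CPM in Em-Ex and from 2024 to 4273 CPM in YS-Ex. The lowest groups were therefore richer in replication genes and poorer in genes of anaphase, so the name mitotic refers to the rule and not to a checked phase. *Ccne2*, cyclin E2 of the entry into S phase, was at 5.91 CPM (2.17–12.9) in the highest and 11.6 CPM (5.78–20.7) in the lowest group of Em-Ex and at 15.5 CPM (8.45–25.9) and 62.1 CPM (46.4–81.5) in YS-Ex. Median UMIs per cell lay between 17116 and 18626 over the groups of Em-Ex and between 19800.5 and 20409 over those of YS-Ex. *Ccne2*, *Cdc6* and *Mcm5*, a helicase subunit, were picked for this split with earlier results of these data known.

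**Figure D4:**
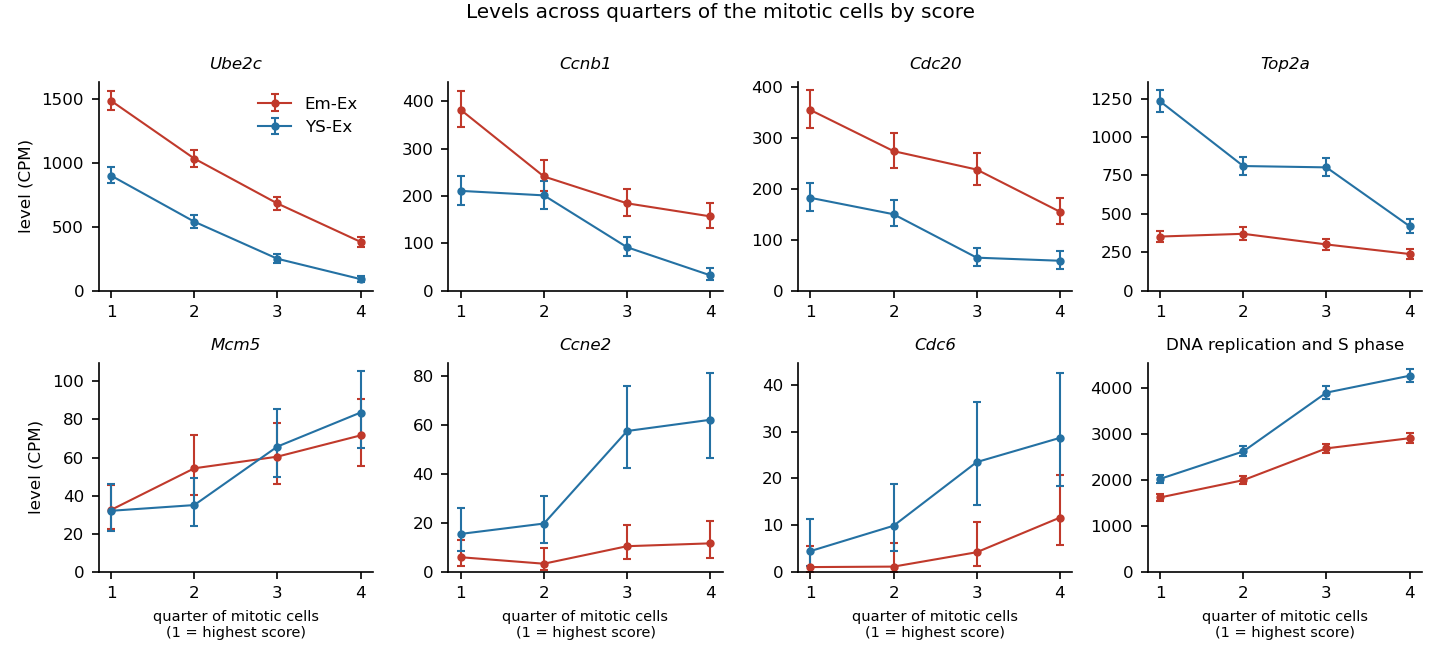
Level in CPM (y axes, 95% Poisson intervals) of single genes and of the replication list in mitotic cells of Em-Ex and YS-Ex, in 4 groups by score with 1 as the highest (x axes). *Ube2c* falls from 1485 to 381 CPM in Em-Ex, and the replication list rises from 1619 to 2911 CPM in Em-Ex and from 2024 to 4273 CPM in YS-Ex.

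Single mitotic cells showed the same opposition. Levels per 10000 UMIs of the cyclin and replication lists had a Spearman rho of −0.58 over 214 cells of Em-Ex and −0.63 over 185 cells of YS-Ex. The cyclin and checkpoint lists had a rho of 0.70 and 0.74, and the replication and histone lists of 0.35 and 0.64. The cells share a library, and the lists of 1 cell share its depth, so these values describe the cells and were not tested.

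Regulators of G1 had mixed directions. Of 18 genes with enough UMIs in each library, 5 were higher and 2 lower in Em-Ex and 4 and 2 in YS-Ex, against 4.65% and 6.52% of all genes higher and 2.12% and 3.69% lower. By the stricter count 4 of 16 and 3 of 17 were higher and 2 of 16 and 2 of 17 lower. *Cdkn2c*, p18, an inhibitor of CDK4 and CDK6, was at 33.3 against 3.97 CPM in Em-Ex (8.39-fold, 6.35–11.1) and 31.3 against 2.01 CPM in YS-Ex (15.6-fold, 10.9–22.8). It had too few UMIs in the other cells of either library for the stricter count, so both ratios rest on few UMIs there. *Cdkn2d*, p19, of the same family, was at 181 against 73.4 CPM in Em-Ex and 140.2 against 68.4 CPM in YS-Ex. *Btg1*, an anti-proliferative gene, went the other way, at 214 against 517 CPM in Em-Ex (0.414-fold, 0.385–0.444) and 235 against 560.1 CPM in YS-Ex (0.420-fold, 0.391–0.451). *Ccnd2*, cyclin D2, was at 205 against 357 CPM in Em-Ex and 149 against 313 CPM in YS-Ex, past 2-fold in YS-Ex only. *Cdkn1a*, p21, was at 235 against 352 CPM in Em-Ex and 286 against 404 CPM in YS-Ex.

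The granule genes took a lower summed share of the UMIs of mitotic cells, and few reached 2-fold. Without *Cpa3* the list summed to 27624 against 42806 CPM in Em-Ex (0.645-fold, 0.641–0.649) and 25829.8 against 37975 CPM in YS-Ex (0.680-fold, 0.676–0.685). *Cpa3*, the carboxypeptidase that the rule used, was at 9097 against 13752 CPM in Em-Ex and 12873 against 18261 CPM in YS-Ex. *Cma1*, a chymase, was at 11587 against 18355 CPM in Em-Ex (0.631-fold, 0.625–0.637) and 11275 against 15828 CPM in YS-Ex (0.712-fold, 0.705–0.720). *Tpsb2*, a tryptase, was at 4253 against 7813 CPM in Em-Ex (0.544-fold, 0.536–0.553) and 5046 against 8923 CPM in YS-Ex (0.565-fold, 0.557–0.574). *Hdc*, which makes histamine, was at 2077 against 2970.2 CPM in Em-Ex (0.699-fold, 0.683–0.716) and 1032 against 2248 CPM in YS-Ex (0.459-fold, 0.444–0.475). In CPM, *Cma1*, *Tpsb2* and *Hdc* were lower in mitotic than in other cells of both libraries. Cells were chosen for *Cpa3*, so nothing is read from its level. Of 20 protease and granule genes, 0 of 19 in Em-Ex and, in YS-Ex, 2 of 19 were at least 2-fold lower (against 2.12% and 3.69% of all genes) and 0 higher, with medians of −0.44 in Em-Ex and −0.48 in YS-Ex. These counts and medians include *Cpa3*. With *Cpa3* left out, Em-Ex had 0 of 18 genes lower and a median of −0.40. YS-Ex then had 2 of 18 lower and a median of −0.47. *Tpsg1*, a membrane tryptase, did not share the lower level, at 1430.1 against 1452 CPM in Em-Ex and 1095 against 1025 CPM in YS-Ex. Of the receptors, signalling genes and transcription factors, 3 of 24 in Em-Ex and, in YS-Ex, 2 of 23 were lower and 0 higher. *Kit*, the SCF receptor, was at 280.4 against 351 CPM in Em-Ex and 695 against 1039 CPM in YS-Ex. *Ms4a2*, the beta chain of the IgE receptor, was at 60.3 against 51.8 CPM in Em-Ex and 70.7 against 67.6 CPM in YS-Ex. *Fcer1a*, its alpha chain, was at 6.76 against 16.8 CPM in Em-Ex and 15.7 against 19.7 CPM in YS-Ex. *Gata2*, a transcription factor of mast cells, was at 606 against 544 CPM in Em-Ex (1.11-fold, 1.06–1.16) and 611 against 747 CPM in YS-Ex (0.819-fold, 0.782–0.857), above 1 in Em-Ex and below 1 in YS-Ex. *Tpsg1*, *Ms4a2* and *Fcer1a* were named after their values were seen. Of the eicosanoid genes, 1 of 7 in Em-Ex and, in YS-Ex, 2 of 8 were lower. *Alox5ap*, the helper protein of leukotriene synthesis, was at 421 against 817 CPM in Em-Ex and 243 against 548 CPM in YS-Ex, past 2-fold in YS-Ex only.

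Counted per cell, the granule list had ratios of summed UMIs close to 1 and its genes differed. The granule list without *Cpa3* held 496 UMIs per mitotic and 515 per other cell in Em-Ex and 489.9 and 470.2 in YS-Ex, ratios of 0.963 and 1.04, and with *Cpa3* the ratios were 0.969 and 1.05. *Tpsb2* was at 76.4 UMIs per mitotic and 94.0 per other cell in Em-Ex and 95.7 and 110.5 in YS-Ex, and *Hdc* at 37.3 UMIs per mitotic and 35.7 per other cell in Em-Ex and 19.6 and 27.8 in YS-Ex. By these means *Tpsb2* was lower per cell in both libraries and *Hdc* in YS-Ex, and by medians *Hdc* was lower in both, at 20.0 against 23.0 UMIs in Em-Ex and 14.0 against 19.0 in YS-Ex. The medians of *Tpsb2* were 39.0 against 68.0 UMIs in Em-Ex and 68.0 against 92.0 in YS-Ex. By means *Cma1* was at 208 UMIs per mitotic and 221 per other cell in Em-Ex, and higher in mitotic cells of YS-Ex, at 214 and 196. *Kit* was at 5.04 and 4.23 UMIs in Em-Ex and 13.2 and 12.9 in YS-Ex. The list of receptors, signalling genes and transcription factors was at 107 and 91.6 UMIs in Em-Ex and 115 and 109 in YS-Ex. All genes together gave 17965 UMIs per mitotic and 12035 per other cell in Em-Ex and 18967 and 12382 in YS-Ex, ratios of 1.49 and 1.53. Ribosomal protein genes had ratios per cell of 1.42 and 1.502, and tubulins of 4.64 and 5.09. The granule list as a whole thus took a smaller share of a larger number of UMIs.

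Cytokine and chemokine genes were lower in mitotic cells. Of 22 listed genes 19 were in the table, and 10 of 18 in Em-Ex and, in YS-Ex, 7 of 15 were at least 2-fold lower, against 2.12% and 3.69% of all genes, and 0 higher (10 of 18 and 6 of 13 by the stricter count), with medians of −1.13 in Em-Ex and −0.91 in YS-Ex. *Il13*, a type 2 cytokine, was at 21.6 against 49.4 CPM in Em-Ex (0.437-fold, 0.346–0.547) and 30.8 against 71.2 CPM in YS-Ex (0.432-fold, 0.352–0.525). *Ccl3*, an inflammatory chemokine, was at 31.0 against 73.7 CPM in Em-Ex (0.420-fold, 0.346–0.506) and 14.5 against 50.6 CPM in YS-Ex (0.287-fold, 0.213–0.381). *Csf1*, a macrophage growth factor, was at 16.1 against 36.8 CPM in Em-Ex and 18.5 against 65.0 CPM in YS-Ex. *Il6* did not follow, at 68.1 against 69.4 CPM in Em-Ex and 81.8 against 99.7 CPM in YS-Ex, and *Il4* was at 111 against 159 CPM in Em-Ex and 132 against 198 CPM in YS-Ex. Over the bins of the score the list was at 769.5, 609, 477 and 406 CPM in Em-Ex against 805, 706, 579.6 and 437 CPM in YS-Ex, from score 0 to the mitotic cells, lower at each step. Per cell it held 7.29 UMIs per mitotic and 8.54 per other cell in Em-Ex and 8.28 and 9.51 in YS-Ex. *Tnfrsf9*, the costimulatory receptor 4-1BB, is no cytokine but is counted in this list. It was at 8.32 against 39.7 CPM in Em-Ex (0.209-fold, 0.142–0.298) and 1.42 against 43.0 CPM in YS-Ex (0.0331-fold, 0.0107–0.0775). Its UMIs were found in 6.54% of the mitotic and 10.2% of the other cells of Em-Ex and in 2.16% and 9.54% of those of YS-Ex.

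Immediate-early genes, which respond within minutes to growth factors, adhesion and cell handling, were mostly below 1. At least 2-fold lower were 2 of 22 in Em-Ex and, in YS-Ex, 5 of 22 (against 2.12% and 3.69% of all genes), with 0 higher and medians of −0.58 in Em-Ex and −0.51 in YS-Ex. *Egr2* was at 9.62 against 27.9 CPM in Em-Ex (0.345-fold, 0.240–0.480) and 21.1 against 51.5 CPM in YS-Ex (0.410-fold, 0.319–0.519). *Junb* was at 691 against 1270.0 CPM in Em-Ex and 608 against 1191 CPM in YS-Ex. *Fos* was at 807 against 1210.2 CPM in Em-Ex and 1425 against 1795 CPM in YS-Ex. Per cell the list held 95.5 UMIs per mitotic and 97.8 per other cell in Em-Ex and 124 and 116 in YS-Ex.

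Among the 15 genes with the lowest ratio in both libraries were *Asb2*, *1700016F12Rik*, *Tnfrsf9*, *Gm14010*, *Pigz*, *Igfbp5*, *Pf4*, *Tcp11l2*, *Mrgprb2*, *Ankrd33b*, *Ccl2*, *Ndrg1*, *Nmb* and *Il7r*. All of these but *Nmb* were at most 8.32 CPM in the mitotic cells of either library. *Nmb*, neuromedin B, was the abundant one, at 70.0 against 229 CPM in Em-Ex (0.305-fold, 0.269–0.345) and 60.1 against 241 CPM in YS-Ex (0.2497-fold, 0.217–0.287). Its UMIs were found in 52.8% of the mitotic and 77.6% of the other cells of Em-Ex and in 50.3% and 77.9% of those of YS-Ex, although mitotic cells had more UMIs, and at 3000 UMIs per cell in 14.95% and 45.5% in Em-Ex and 14.6% and 45.4% in YS-Ex. *Mrgprb2*, the mast cell receptor of basic secretagogues, was at 4.42 against 15.8 CPM in Em-Ex (0.280-fold, 0.161–0.455) and 0.570 against 11.5 CPM in YS-Ex (0.0494-fold, 0.00595–0.180), with 17 and 2 UMIs in mitotic cells. *Pigz*, an enzyme of GPI anchors, was at 4.16 against 19.4 CPM in Em-Ex (0.214-fold, 0.121–0.352) and 5.98 against 27.3 CPM in YS-Ex (0.219-fold, 0.135–0.338). *Igfbp5*, which binds insulin-like growth factors, was at 6.503 against 28.2 CPM in Em-Ex (0.230-fold, 0.148–0.343) and 5.98 against 29.2 CPM in YS-Ex (0.205-fold, 0.126–0.316).

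Genes of basic metabolism moved little. Of 82 ribosomal protein genes, 13 genes of the mitochondrial genome and 89 nuclear respiratory chain genes with enough UMIs, 0 were past 2-fold in either library. Median log2 ratios were −0.06 in Em-Ex and −0.02 in YS-Ex for ribosomal protein genes, −0.18 in Em-Ex and −0.17 in YS-Ex for mitochondrial genes and 0.14 in Em-Ex and 0.19 in YS-Ex for respiratory chain genes. Of the 15 chaperones 0 were past 2-fold, with medians of 0.34 in Em-Ex and 0.29 in YS-Ex. Of the hypoxia and glycolysis genes only *Ndrg1*, a stress-induced gene, was past 2-fold, at 2.34 against 8.12 CPM in Em-Ex and 2.56 against 10.1 CPM in YS-Ex.

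Genes of the sort were present, and the summed markers of other cell types ranged from 0 to 203 CPM in mitotic cells. *Ptprc*, which encodes CD45, was at 34.3 against 45.9 CPM in Em-Ex and 85.8 against 109 CPM in YS-Ex. *Pecam1*, CD31, was at 50.7 against 54.9 CPM in Em-Ex and 45.9 against 52.4 CPM in YS-Ex. *Itga2b*, CD41, by whose absence cells were sorted, was at 10.7 against 21.5 CPM in Em-Ex and 7.98 against 15.6 CPM in YS-Ex. Summed neutrophil progenitor markers (5 of 8 in the table) were at 12.5 against 14.5 CPM in Em-Ex and 6.27 against 7.42 CPM in YS-Ex. Megakaryocyte markers (3 of 5) were at 14.3 against 38.7 CPM in Em-Ex and 11.4 against 28.8 CPM in YS-Ex, and erythroid markers (8 of 8) at 83.0 against 107 CPM in Em-Ex and 203 against 233 CPM in YS-Ex. Basophil and eosinophil markers (2 of 5) were at 170.4 against 140.4 CPM in Em-Ex and 88.6 against 50.8 CPM in YS-Ex, and lymphoid markers (2 of 6) at 47.6 against 56.3 CPM in Em-Ex and 34.5 against 53.4 CPM in YS-Ex. Stromal and endothelial markers (3 of 8) were at 0.520 against 2.10 CPM in Em-Ex and had 0 UMIs in YS-Ex. Of these lists the basophil and eosinophil one was higher in mitotic cells of both libraries, 1.21-fold (1.11–1.32) in Em-Ex and 1.74-fold (1.53–1.98) in YS-Ex. Macrophage markers (10 of 10) summed to 146 against 142 CPM in Em-Ex and 99.7 against 78.8 CPM in YS-Ex, 1.03-fold (0.939–1.13) in Em-Ex and 1.27-fold (1.13–1.42) in YS-Ex. Of those with enough UMIs, 1 of 8 in Em-Ex and, in YS-Ex, 1 of 4 were higher and 3 of 8 in Em-Ex and, in YS-Ex, 3 of 4 lower, with medians of −0.80 in Em-Ex and −1.01 in YS-Ex, so in YS-Ex the sum and the median differed in direction. *Cx3cr1*, a chemokine receptor on that list, was at least 2-fold higher in both, at 91.8 against 32.1 CPM in Em-Ex (2.86-fold, 2.51–3.26) and 84.6 against 42.0 CPM in YS-Ex (2.01-fold, 1.76–2.30). The macrophage markers *Lyz2* and *Adgre1* went the other way, at 12.2 against 33.5 CPM in Em-Ex and 3.99 against 8.26 CPM in YS-Ex for *Lyz2* and 3.90 against 8.12 CPM in Em-Ex and 2.85 against 9.62 CPM in YS-Ex for *Adgre1*. The part of such cells in the results was not tested.

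Between the libraries, 100 of 6022 genes were at least 2-fold higher in the mitotic cells of Em-Ex than of YS-Ex (1.66%) and 495 at least 2-fold lower (8.22%). Among the other cells 248 of 9520 were higher (2.61%) and 1111 lower (11.7%). The 8 genes furthest toward Em-Ex, of those with at least 50 CPM, were *Car2*, *Hapln1*, *Mcpt1*, *Pxdc1*, *Car8*, *Tmem51*, *Lyl1* and *Fabp5*. Cells were chosen with a limit on *Mcpt1*, so nothing is read from its level. *Car2*, a carbonic anhydrase, was at 59.8 CPM in Em-Ex against 7.69 CPM in YS-Ex, 7.77-fold (5.21–12.1), and at 4.69-fold in the other cells. *Hapln1*, a link protein of hyaluronan, was at 93.1 CPM in Em-Ex against 12.3 CPM in YS-Ex, 7.60-fold (5.53–10.7), and at 7.09-fold in the other cells. *Lyl1*, a transcription factor of blood progenitors, was at 133 CPM in Em-Ex against 49.9 CPM in YS-Ex, 2.66-fold (2.24–3.18), and at 1.499-fold in the other cells. The 7 genes other than *Mcpt1* were above 1 in the other cells too.

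The 8 genes furthest toward YS-Ex were *Hist1h1e*, *Hist1h1b*, *Hist1h4d*, *Fbp2*, *Hist1h2ae*, *Itga4*, *Tle4* and *Atad5*. *Hist1h1e*, a linker histone, was at 28.4 CPM in Em-Ex against 441 CPM in YS-Ex, 0.0643-fold (0.0525–0.0782), and at 0.0914-fold in the other cells. *Itga4*, the alpha chain of the integrin VLA-4, was at 22.1 CPM in Em-Ex against 149 CPM in YS-Ex, 0.149-fold (0.117–0.187), and at 0.162-fold in the other cells. *Fbp2*, a muscle-type gluconeogenic enzyme, was at 6.76 CPM in Em-Ex against 60.1 CPM in YS-Ex, 0.112-fold (0.0718–0.169), and at 0.416-fold in the other cells. *Kit* itself was at 0.404-fold (0.375–0.434) in mitotic and 0.338-fold in other cells. All 8 genes were below 1 in the other cells too, so none of these differences was seen in mitotic cells alone.

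The median log2 difference of Em-Ex minus YS-Ex, over the members with enough UMIs in each kind of cell and so over partly different members, was 0.18 (10 genes) in mitotic and 1.65 (7 genes) in other cells for kinases. It was −0.24 (33 genes) and 0.87 (29 genes) for the kinetochore and −0.47 (39 genes) and 0.75 (42 genes) for replication. For condensin and chromosome structure it was −0.87 (9 genes) and 0.21 (9 genes), and for cohesin −0.96 and −0.79 (11 genes each). The 6 genes whose ratio differed most toward YS-Ex were *Esco2*, *Depdc1a*, *Kif15*, *Foxm1*, *Mybl2* and *Lrr1*. Of these, 3 had 100 UMIs in the other cells of Em-Ex and 0 in those of YS-Ex, where they had 8 to 65 UMIs, so their rank rests on few UMIs. Over the genes with 100 UMIs in the other cells of both libraries, the 6 were *Ung*, *Tk1*, *Rrm2*, *Cdc6*, *Ccne2* and *Uhrf1*. *Tk1* encodes thymidine kinase. *Uhrf1*, which keeps DNA methylation through replication, had a log2 ratio of 0.49 in Em-Ex and 2.67 in YS-Ex. *Depdc1a*, a gene on the cytokinesis list, was at 27.3 against 3.08 CPM in Em-Ex (8.87-fold, 6.49–12.2) and 28.5 against 0.373 CPM in YS-Ex (76.3-fold, 37.3–182). *Kif15*, a spindle motor, was at 27.1 against 4.37 CPM in Em-Ex (6.19-fold, 4.65–8.24) and 78.7 against 1.73 CPM in YS-Ex (45.5-fold, 32.2–66.0). The 6 toward Em-Ex were *Calca*, *Tnfrsf9*, *Ifih1*, *Mrgprb2*, *Alox8* and *Adora2a*, all with at most 32 UMIs in the mitotic cells of either library. *Calca*, the gene of calcitonin and CGRP, was at 5.98 against 9.41 CPM in Em-Ex (0.636-fold, 0.394–0.980) and 1.71 against 20.2 CPM in YS-Ex (0.0848-fold, 0.0309–0.186). With the top 20% of cells taken its log2 ratio in YS-Ex turned to 1.47.

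Differences between the libraries moved with transcript length. Among 5849 genes with a length in GENCODE vM21, taken as the longest transcript, the median log2 difference of Em-Ex minus YS-Ex in mitotic cells was 0.22 in the shortest of 4 equal groups (231 to 1965 bases), 0.22 and −0.04 in the next groups and −0.56 in the longest (4523 bases or more). Spearman's rho across these genes was −0.46. In the other cells, divided in the same way by their own genes, the medians were 0.21, 0.09, −0.21 and −0.67. The shift was thus found in mitotic and other cells alike. Of the 1462 longest genes 335 were at least 2-fold lower in mitotic cells of Em-Ex and 5 higher. *Itga4* (9767 bases) and *Kit* (5241 bases) above were long, and *Hist1h1b* (743 bases), at 0.0780-fold (0.0638–0.0946), was short. The part of length in the differences between the libraries was not tested. With cells ranked by *Hmmr*, *Prc1* and *Plk1*, the 3 rule genes with the shortest transcripts, 10 replication genes were higher in Em-Ex and 31 in YS-Ex.

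**Figure D5:**
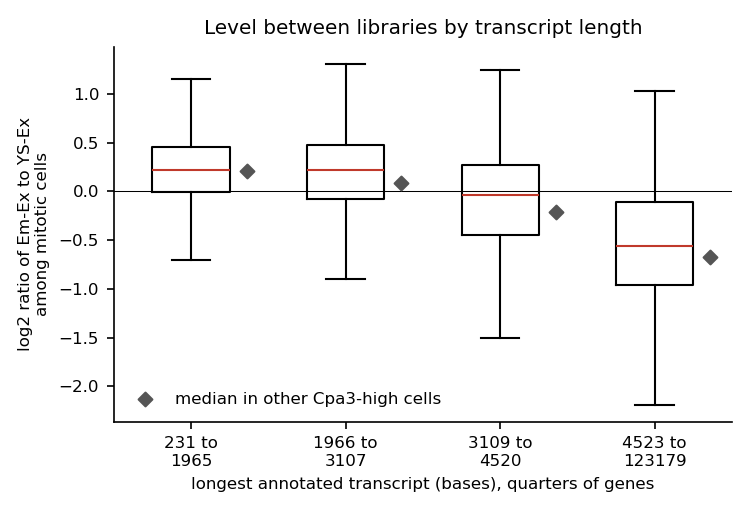
Log2 difference of Em-Ex minus YS-Ex in mitotic cells (y axis) for 5849 genes in 4 equal groups of transcript length in bases (x axis), as boxes at the quartiles with the median, and diamonds for the medians of the other cells in groups of their own. Medians go from 0.22 in the shortest to −0.56 in the longest group in mitotic cells and from 0.21 to −0.67 in the other cells.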

How the data were processed

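Single cells sorted from explants of the embryo proper (Em-Ex) and of the yolk sac (YS-Ex) were profiled as 1 droplet library each. Per the labels and the submitters' processing notes, the authors used bcl2fastq 2.19.1.403 and Cell Ranger 2.0.1 with mm10, and deposited 1 table of UMI counts per gene and barcode, not normalized, that holds both libraries. The limits on genes, mitochondrial UMIs, *Cpa3* and *Mcpt1* and the score left 214 and 185 mitotic cells, with 3844536 and 3508895 UMIs, and 1863 and 1730 other cells, with 22420642 and 21420750 UMIs. No doublet caller was run, and the limit of 5000 genes was the only step aimed at doublets. UMIs were summed per library and cell group and given per 1000000 UMIs (CPM). A gene was called at a ratio of at least 2 either way, with an exact conditional binomial 95% interval off 1 and at least 100 UMIs, and 0.5 was added to each count before taking log2. No test was run, since each condition had 1 library. The members and gene lists were chosen with earlier results of these data known. Genes were named by a fixed rule: the rule and sort genes, the 15 highest and 15 lowest by the smaller ratio of both libraries, up to 6 most abundant members of each list and members called in both libraries, the 8 genes furthest to each side between the libraries at 50 CPM or more, and the 6 whose ratios differed most in each direction. Exceptions are marked where they are named. A gene that the rule would name is not reported here. The pooled ratios and their intervals were tried on simulated Poisson counts, which hold no spread between cells. Known changes were set only in genes with 100 UMIs in the other cells, so genes with fewer were not covered. The thinning was checked on part of the data, and the other steps were not simulated. A total of 16 alternatives were planned and 2, a score from *Hmmr*, *Prc1* and *Plk1* and a limit of 100 UMIs in the other cells, were added after seeing the data. A count or list median was taken as moved past 1.5 times, and a share or gene ratio outside its counting interval. Promoter windows came from RefSeq and transcript lengths from GENCODE vM21. Python 3.11.15, numpy 2.4.6, scipy 1.17.1, pandas 2.3.3 and matplotlib 3.10.9 were used.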

Additional observations from a re-analysis of the deposited data

Results flagged for a closer look

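A few named genes lay on opposite sides of an equal level in the libraries, each with a counting interval off 1, and the difference between the libraries was not tested. *Gata2*, a mast cell transcription factor, had a log2 ratio of mitotic to other cells of 0.16 in Em-Ex and −0.29 in YS-Ex. *Lyl1*, a transcription factor of blood progenitors, was at 0.38 and −0.44. The ribosomal protein gene *Rps18* was at −0.0423 and 0.0408, and *Rps19* at −0.0756 and 0.0780. Outside the cells analysed, high scores were also found among *Cpa3*-high barcodes that the limits removed. Over the limit of 5000 genes, 5 of 10 Em-Ex and 17 of 23 YS-Ex barcodes had a score at or over that of the lowest mitotic cell. Over the mitochondrial limit these were 12 of 242 Em-Ex barcodes, 4.96% (2.59–8.502), and 57 of 854 YS-Ex ones, 6.67% (5.09–8.56).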

How the results depend on the processing

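No paired analysis was possible because each condition had 1 library and no result came from a test. Over 16 other settings and 2 added after seeing the data, 35 counts of genes at least 2-fold higher and 34 of genes lower stayed within 1.5 times, and 1 and 2 did not. Of the log2 ratios of the 309 named genes 8307 stayed within their counting interval, 2110 moved outside it and 4 reversed. The causes were not tested. Medians below are log2 ratios over a list.

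Taking the top 5% gave shares of 3.66% in Em-Ex and 6.48% in YS-Ex, in Em-Ex medians of 2.49 (passenger complex), 2.73 (kinesins) and −0.17 (replication) with 1 replication gene higher, and in YS-Ex 4.16 (kinases), 4.15 (kinesins) and 3.83 (cytokinesis), and *Clspn* reversed to −0.13 in Em-Ex. Taking the top 20% gave shares of 21.1% and 18.8%, in Em-Ex 4.04 (kinases), 3.78 (passenger complex), 1.51 (MuvB) and 23 higher replication genes, in YS-Ex 117 lower genes, and reversed *Pf4* to 0.56 and *Calca* to 1.47 in YS-Ex. A score on thinned cells gave 2.65 for kinesins in Em-Ex and reversed the macrophage markers to 0.15 and *C1qa* to 0.19 there. A score from *Aspm*, *Cenpf* and *Plk1* gave 4.25 (kinases), 3.79 (passenger complex), 3.77 (cytokinesis) and 1.10 (replication) in YS-Ex, and one from *Hmmr*, *Prc1* and *Plk1* gave 4.47 for kinases there. With *Cpa3* at 80 or more, kinases were at 3.75 and 17 replication genes higher in Em-Ex, and MuvB was at 1.04 in YS-Ex. Means over cells gave 18 higher replication genes in Em-Ex. Scaling by the median ratio gave 284 lower genes against 290 higher and 5 higher replication genes in Em-Ex, and 507 higher and 391 lower genes in YS-Ex. No filter gave 625 higher genes in Em-Ex and 3.88 for the kinetochore in YS-Ex. Against cells with a score of 0 alone, medians in Em-Ex were 3.42 (cyclins), 5.01 (kinases), 3.77 (kinetochore), 4.60 (passenger complex), 4.91 (kinesins), 3.47 (condensin) and 4.69 (cytokinesis), with 20 higher replication genes and the neutrophil progenitor markers reversed to 0.64, and in YS-Ex 3.75, 6.30, 4.01, 5.05, 5.77, 4.22 and 5.10 for the same lists. With at least 100 UMIs in the other cells, which leaves fewer members, medians were 2.47 (cytokinesis) in Em-Ex and 2.51 (kinases), 3.72 (kinesins), 0.83 (cytokinesis) and 0.62 (MuvB) in YS-Ex. Counting error is wide for genes with few UMIs, such as *Calca*, with 23 and 6 UMIs in mitotic cells.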
